A study of Mus musculus with 2 samples.

Results

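Markers of committed, ICAM1-positive preadipocytes and of F3-positive regulatory stromal cells were followed in PDGFRa-positive cells of mouse inguinal fat, with and without deletion of Sox9. Of 10 gene names listed for these cells, 9 had a row of their own name among the 23669 rows of the deposited table. They were Icam1, Fabp4, Cd36, Ggt5 and Penk for the committed preadipocytes, and F3, Clec11a, Fmo2 and Mgp for the F3-positive cells. The 10th name, Cd142, is the cell surface designation of the F3 product and had no row of its own. All 9 passed the filter used below, an average over both libraries of 1 CPM or more (CPM, the count of a gene scaled to a common library total), as did 13684 genes in all.

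The study compared Sox9 floxed mice with Sox9 PreASKO mice, its name for the Sox9 knockout, and its title places Sox9 and Meis1 upstream of the step from Pref-1-positive to PDGFRa-positive cells. Both groups were male, 3 weeks old and had received doxycycline at postnatal day 1, so doxycycline exposure was common to both. Each genotype was represented by 1 RNA-seq library of cells stained for PDGFRa from the stromal vascular fraction, the non-fat cells released by collagenase, and the design text describes pools of 3 mice. The labels do not name the promoter that drives the recombinase, nor the cells in which Sox9 was deleted.

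Inguinal fat holds several kinds of PDGFRa-positive stromal cell. DPP4-positive cells are regarded as early progenitors that give rise to ICAM1-positive cells, which already express adipocyte genes at low levels and readily turn into fat cells. A further population carries F3 on its surface and has been reported to differentiate poorly and to restrain adipogenesis in its neighbours. The 9 genes are used as markers of the ICAM1-positive and F3-positive populations, although several are also made by macrophages, endothelial cells or mature adipocytes. In sorted bulk RNA, more cells of a type and more RNA per cell cannot be told apart.

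With 1 library per genotype there was no replicate check, no test and no p-value for any difference. Intervals are exact 95% intervals, Poisson for a level and binomial (Clopper-Pearson) for a ratio of CPM, and they cover counting error only. Total counts were 61761645 for floxed and 37597048 for PreASKO. Sox9 itself stood at 28.6 CPM in the floxed and 17.0 CPM in the PreASKO pool, a ratio of 0.595. The library labelled PreASKO held 745 CPM of the female-typical Xist RNA against 3.24 CPM in floxed, although both pools are labelled male. The Y-linked genes were present in both, Ddx3y at a ratio of 0.973 and Uty, Eif2s3y and Kdm5d at 0.730, 0.625 and 0.538. The pools therefore differed in this respect as well as in genotype, and its part in the values below cannot be told apart from that of the genotype.

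With both deposited counts added, the committed preadipocyte markers were all higher in the PreASKO library and the F3-positive cell markers were divided, an order of the sets that was opposite in raw counts alone. All 5 committed markers had a ratio above 1, with a median log2 ratio of 0.40 (log2 of CPM + 1, PreASKO minus floxed). Of the 4 F3-positive cell markers, Mgp and Clec11a were higher while F3 and Fmo2 were level or slightly lower, and the median was 0.15. From raw counts alone the set medians were 0.21 for the committed and 0.44 for the F3-positive cell markers, with 3 of 4 markers above a ratio of 1 in each set and Cd36 without enough raw counts. No difference between the sets was tested. Together 7 of 9 markers were higher, with a median of 0.31, against 45.5% of all genes and a median of -0.04, and 2 of 9 were lower, against 54.5% of all genes. Only Fabp4 passed the 2-fold cutoff named in the series design text, which 2.11% of all genes passed upward and 1.52% downward, and no marker was 2-fold lower. Fabp4 and Mgp were at least 1.5-fold higher, as were 7.89% of all genes and 3.80% of the 4082 genes that averaged 50 CPM or more, a range of levels that holds all 9 markers.

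**Figure D1:**
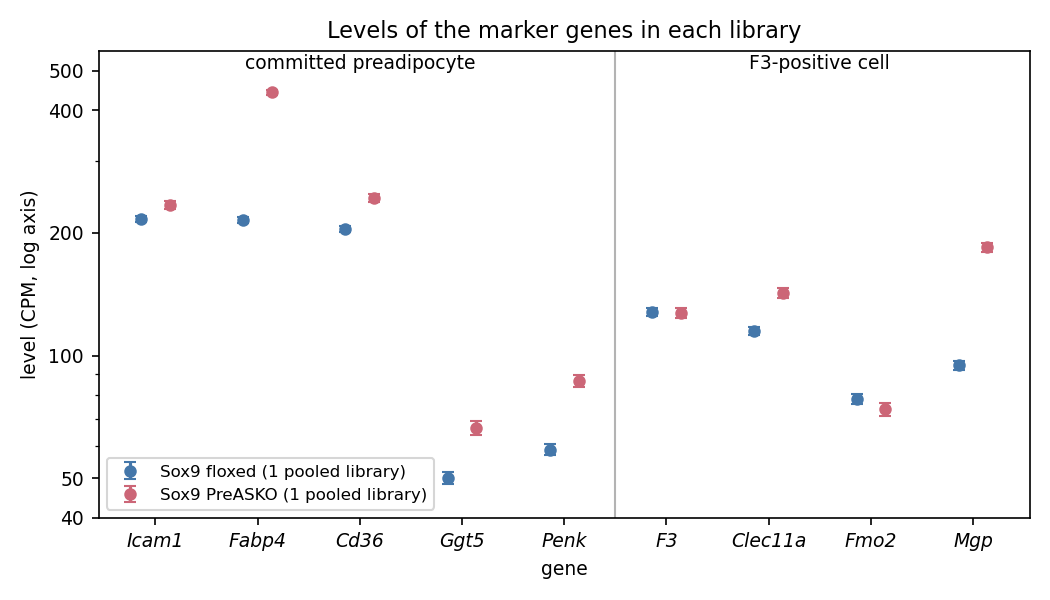
Level of each marker gene in CPM (log axis) in the floxed library and in the PreASKO library, with exact 95% Poisson intervals that cover counting error only. Fabp4 (216 and 443 CPM) and Mgp (94.6 and 184 CPM) are the markers whose points lie farthest apart, and those of F3 (128 and 127 CPM) nearly coincide.

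Icam1 (Entrez gene ID 15894; chromosome 9, 21015940 to 21028814, mouse assembly GRCm38, on which mm10 is based) encodes the adhesion molecule that names the committed population and that binds leukocyte integrins. It was measured at 217 CPM (13384 counts) in the floxed pool and at 234 CPM (8803 counts) in the PreASKO pool. The libraries were close for this gene, with a ratio of 1.08 (95% interval 1.05 to 1.11), and 34.9% of all genes had a log2 ratio at least as high. Raw counts gave a ratio of 1.10 and repeat-distributed counts one of 0.909, so its direction depended on the count column. F3 (ID 14066; chromosome 3, 121723537 to 121735052) encodes tissue factor, the receptor that starts the extrinsic pathway of blood coagulation and the surface antigen of the other population. F3 RNA was measured at 128 CPM (7909 counts) in the floxed pool and at 127 CPM (4781 counts) in the PreASKO pool, giving a ratio of 0.993 (0.958 to 1.03). The defining surface marker genes of both populations thus differed by less than 1.2-fold between the libraries. The number of F3 counts per Icam1 count was 0.591 in floxed and 0.543 in PreASKO.

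The start regions of these surface marker genes are shown because both genes are known to respond to inflammatory signals through NF-kB. They run from 250 bases before to 50 bases after the RefSeq start site on GRCm38.p6, both on the plus strand, at chr9:21015690-21015989 for Icam1 and chr3:121723287-121723586 for F3. Capitals mark the letters GGANNNTCC, which fit common NF-kB sites, and TGANTCA, the AP-1 motif; each motif reads the same on both strands, and the matches do not overlap.
Icam1 start region: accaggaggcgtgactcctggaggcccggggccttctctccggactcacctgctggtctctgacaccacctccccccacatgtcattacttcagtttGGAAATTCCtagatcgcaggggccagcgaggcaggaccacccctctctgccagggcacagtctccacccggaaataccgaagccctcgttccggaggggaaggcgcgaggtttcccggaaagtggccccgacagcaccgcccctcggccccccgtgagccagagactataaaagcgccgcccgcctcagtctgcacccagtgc
F3 start region: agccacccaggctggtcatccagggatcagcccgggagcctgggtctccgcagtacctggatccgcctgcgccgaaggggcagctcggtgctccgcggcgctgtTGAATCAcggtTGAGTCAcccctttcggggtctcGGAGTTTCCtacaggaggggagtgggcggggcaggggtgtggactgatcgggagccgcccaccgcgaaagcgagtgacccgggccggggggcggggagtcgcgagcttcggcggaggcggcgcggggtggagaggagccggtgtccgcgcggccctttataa
GGANNNTCC occurred once in each, as GGAAATTCC beginning 153 bases before the start site in Icam1 and as GGAGTTTCC beginning 112 bases before it in F3. TGANTCA occurred in F3 alone of this pair, as TGAATCA and TGAGTCA at 146 and 135 bases before the start site. Among 32544 distinct start regions of this length, 8.66% held GGANNNTCC and 7.79% held TGANTCA. Start regions were at hand for 5 of the markers, and those of Cd36, Clec11a and Fmo2 held neither run of letters. These matches describe the sequence and do not show binding.

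Genes of NF-kB signalling, listed beside Icam1 and F3, showed no common direction. Of 10 such genes, 5 were higher and 5 lower, with a median log2 ratio of -0.02, or 0.02 with TMM scaling. The inhibitor gene Nfkbia, itself induced by NF-kB, stood at 220 CPM in the floxed and 350 CPM in the PreASKO pool, and the adaptor gene Myd88 at 73.0 and 95.8 CPM. Nfkbie, another inhibitor gene, stood at 10.3 and 12.1 CPM. The subunit gene Relb was lower, at 16.3 CPM in the floxed and 12.5 CPM in the PreASKO pool.

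The genes for the leukocyte partners of ICAM1 were higher in the PreASKO library while Icam1 itself was nearly level. Itgal stood at 4.78 CPM in the floxed and 8.59 CPM in the PreASKO pool, Itgam at 24.5 and 38.6 CPM, and their shared beta chain Itgb2 at 19.9 and 30.8 CPM. These integrin subunits are made by leukocytes. Vcam1, an endothelial and stromal adhesion molecule with leukocyte integrins as partners, stood at 129 and 149 CPM. Among the 8 measured genes of this list, 6 were higher and 2 lower, with a median of 0.35. Ezr, a linker between membrane proteins and actin, had the lowest log2 ratio of them, at 5.54 and 3.30 CPM.

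Fabp4 (ID 11770; chromosome 3, 10204342 to 10208616) encodes a fatty acid carrier of adipocytes, macrophages and capillary endothelium. Fabp4 RNA was measured at 216 CPM (13314 counts) in the floxed pool and at 443 CPM (16649 counts) in the PreASKO pool, so that the smaller library held the larger number of counts. Its ratio of 2.05 (2.01 to 2.10) was the highest of the 9 markers, and 1.88% of all genes and 0.661% of those that averaged 50 CPM or more had a log2 ratio at least as high. Per kilobase of its reference transcript, Fabp4 was also the most abundant of the 9, at 241 CPM per kilobase in floxed and 494 in PreASKO, ahead of Mgp at 153 and 299. The lowest per kilobase was Ggt5, at 11.4 in floxed and 15.1 in PreASKO.

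Cd36 (ID 12491; chromosome 5, 17781690 to 17888959), the gene of a membrane protein that takes up long-chain fatty acids and oxidized lipoproteins, differed less. Cd36 RNA was measured at 205 CPM (12636 counts) in the floxed pool and at 244 CPM (9163 counts) in the PreASKO pool, giving a ratio of 1.19 (1.16 to 1.22). Fabp4 and Cd36 were thus about equally counted in floxed, with 1.05 Fabp4 counts per Cd36 count, and apart in PreASKO, with 1.82. Both genes are known targets of PPARG, the receptor that drives adipocyte differentiation, and Pparg was lower in the PreASKO library at 139 and 84.1 CPM. Per Pparg count, the floxed library held 1.55 counts of Fabp4 and the PreASKO library 5.26.

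Other genes of fatty acid uptake were divided. Of 7 measured genes, 4 were higher and 3 lower, with a median of 0.02. Fabp3, the carrier best known from heart muscle, was scarce but higher in PreASKO, at 0.971 and 1.78 CPM. Fabp5, another related carrier that lies on the same chromosome (10012585 to 10016610), stood at 27.1 CPM in the floxed and 15.5 CPM in the PreASKO pool. Acsl1, which activates fatty acids, stood at 46.0 and 29.9 CPM, and Cav1, the main caveolar coat protein, at 274 and 214 CPM. The transporter gene Slc27a4 was close to level at 28.2 and 31.1 CPM.

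Ggt5 (ID 23887; chromosome 10, 75589327 to 75617200) encodes a membrane gamma-glutamyl enzyme that converts leukotriene C4 to D4 and can cleave glutathione. It was the lowest of the 9 in CPM, at 50.2 (3098 counts) in the floxed pool and 66.6 (2504 counts) in the PreASKO pool, giving a ratio of 1.33 (1.26 to 1.40). Genes around it in leukotriene and glutathione metabolism were mostly higher as well, 10 of 11 with a median of 0.23. Alox5, which makes the first leukotriene precursor and is best known from leukocytes, stood at 11.3 and 25.6 CPM, and Alox5ap, its activating partner, at 51.3 and 81.6 CPM. Ltc4s, which makes leukotriene C4, stood at 8.57 and 12.0 CPM. Dpep1, a membrane dipeptidase acting after GGT5, was far more counted, at 706 and 899 CPM. Gclc and Gsr, of glutathione synthesis and reduction, lay closer to level at 29.7 and 30.7 CPM and at 38.3 and 42.3 CPM.

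Penk (ID 18619; chromosome 4, 4133536 to 4138815) encodes proenkephalin, the precursor of the enkephalin opioid peptides. Penk RNA was measured at 58.8 CPM (3634 counts) in the floxed pool and at 86.9 CPM (3266 counts) in the PreASKO pool, giving a ratio of 1.48 (1.41 to 1.55). This direction held for the repeat-distributed count, which holds most of its counts, at 1.60, and was opposite in the raw count alone, at 0.492 (0.383 to 0.626) on 270 and 90 counts. The raw count held 7.43% of Penk counts in floxed and 2.76% in PreASKO. Cpe, a carboxypeptidase that trims neuropeptide precursors, stood at 77.7 and 110 CPM, Ogfrl1, a relative of Ogfr, at 11.4 and 16.0 CPM, and Ogfr, the receptor for an enkephalin in its growth-regulating role, at 18.9 and 38.4 CPM. Mme, whose product neprilysin degrades enkephalins, was level at 44.6 and 46.8 CPM. The classical receptor genes Oprm1 and Oprd1 were below 1 CPM in both libraries, and 4 of 5 measured genes of the list were higher, with a median of 0.45.

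**Figure D2:**
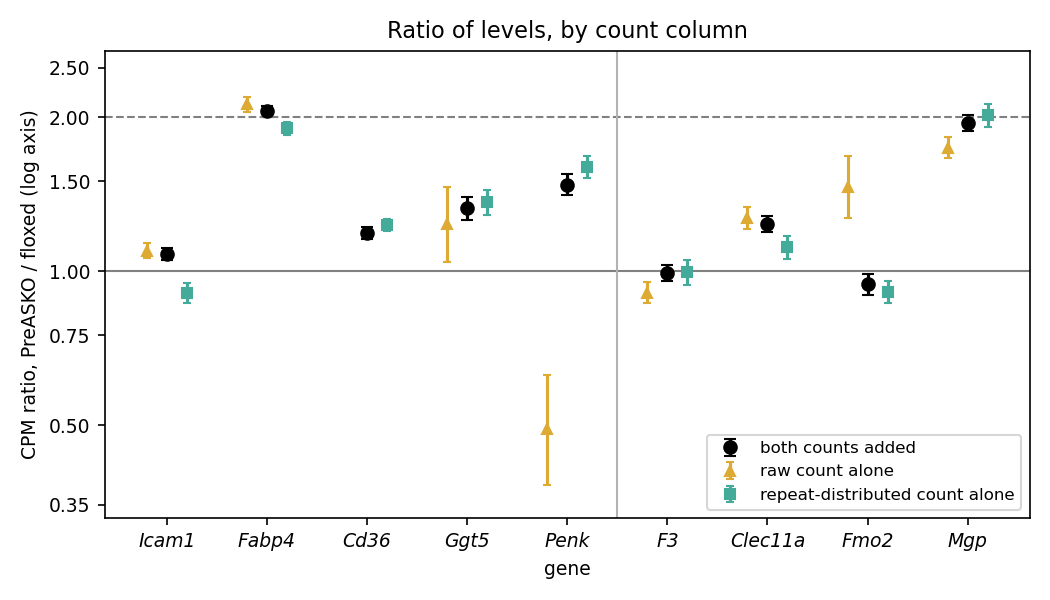
Ratio of CPM, PreASKO over floxed (log axis), of each marker gene from both deposited counts added, from the raw count alone and from the repeat-distributed count alone, with exact 95% binomial intervals; the dashed line is 2-fold. The raw point of Penk (0.492) lies below 1 and that of Fmo2 (1.46) above it, opposite to their other points, and Cd36 has no raw point because that column held 1 count.

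Among the genes of the coagulation and plasmin pathways that surround F3, 4 were higher and 5 lower of 9 measured, with a median of -0.11. Serpine2, an inhibitor of thrombin and of plasminogen activators, stood at 37.2 and 52.1 CPM. Procr, the receptor of protein C, stood at 45.0 and 62.2 CPM, the thrombin receptor gene F2r at 8.89 and 12.6 CPM, and Plaur, the urokinase receptor gene, at 25.3 and 21.9 CPM. Tfpi, the inhibitor of tissue factor itself, was slightly lower at 46.2 and 40.3 CPM, as was Thbd, which turns thrombin toward protein C, at 647 and 579 CPM. The clotting factor genes F7, F10 and F2, made chiefly in liver, were below 1 CPM in both libraries.

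Clec11a (ID 20256; chromosome 7, 44303766 to 44306959) encodes a secreted lectin-family growth factor, also called osteolectin, that promotes bone formation. It was measured at 115 CPM (7112 counts) in the floxed pool and at 143 CPM (5359 counts) in the PreASKO pool, giving a ratio of 1.24 (1.19 to 1.28). The direction was shared by both count columns, with a ratio of 1.27 from raw counts and of 1.11 from repeat-distributed ones. Its receptor contains integrin alpha 11, whose gene Itga11 stood at 166 and 184 CPM, and Itgb1, the beta chain, stood at 405 and 449 CPM.

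Fmo2 (ID 55990; chromosome 1, 162874317 to 162898758) encodes a flavin monooxygenase that oxidizes sulphur and nitrogen compounds. It was measured at 78.2 CPM (4832 counts) in the floxed pool and at 73.9 CPM (2779 counts) in the PreASKO pool, giving a ratio of 0.945 (0.901 to 0.990). The raw count alone, which held 8.38% of its counts in floxed and 14.5% in PreASKO, gave a ratio of 1.46 (1.27 to 1.68). Its neighbour Fmo1 (chromosome 1, 162829561 to 162866610) stood at 151 and 148 CPM, so the quotient of Fmo2 to Fmo1 was 0.517 in floxed and 0.498 in PreASKO. Fmo5 stood at 21.4 and 17.4 CPM, and Fmo4, in the same cluster as Fmo2, was below 1 CPM in both libraries. Reads shared between these related genes could have been divided between them, so the value of Fmo2 is uncertain to that extent.

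Mgp (ID 17313; chromosome 6, 136872435 to 136875823) encodes matrix Gla protein, a vitamin K-dependent inhibitor of calcification and of BMP signalling. It was measured at 94.6 CPM (5843 counts) in the floxed pool and at 184 CPM (6933 counts) in the PreASKO pool, and as with Fabp4 the smaller library held more counts. Its ratio of 1.95 (1.88 to 2.02) lay just below 2-fold, beside Fabp4 just above it, and the authors' deposited table lists a fold change of 2.00 for Mgp and 2.04 for Fabp4. With the repeat-distributed count alone the order was exchanged, at 2.02 for Mgp and 1.90 for Fabp4. Mgp and F3 belong to the same marker set, yet the floxed library held 0.739 Mgp counts per F3 count and the PreASKO library 1.45.

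Genes tied to Mgp through vitamin K or BMP signalling were mixed, 3 of 10 higher and 7 lower, with a median of -0.10. Vkorc1, which regenerates vitamin K, stood at 474 CPM in the floxed and 746 CPM in the PreASKO pool, and Bmp4, a ligand that Mgp restrains, at 30.6 and 59.2 CPM. Gas6, another vitamin K-dependent protein, was level at 251 and 247 CPM. Its receptor genes Axl and Tyro3 were lower, at 1208 and 956 CPM and at 9.25 and 4.68 CPM, whereas the third, Mertk, stood at 19.1 and 24.2 CPM.

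**Figure D3:**
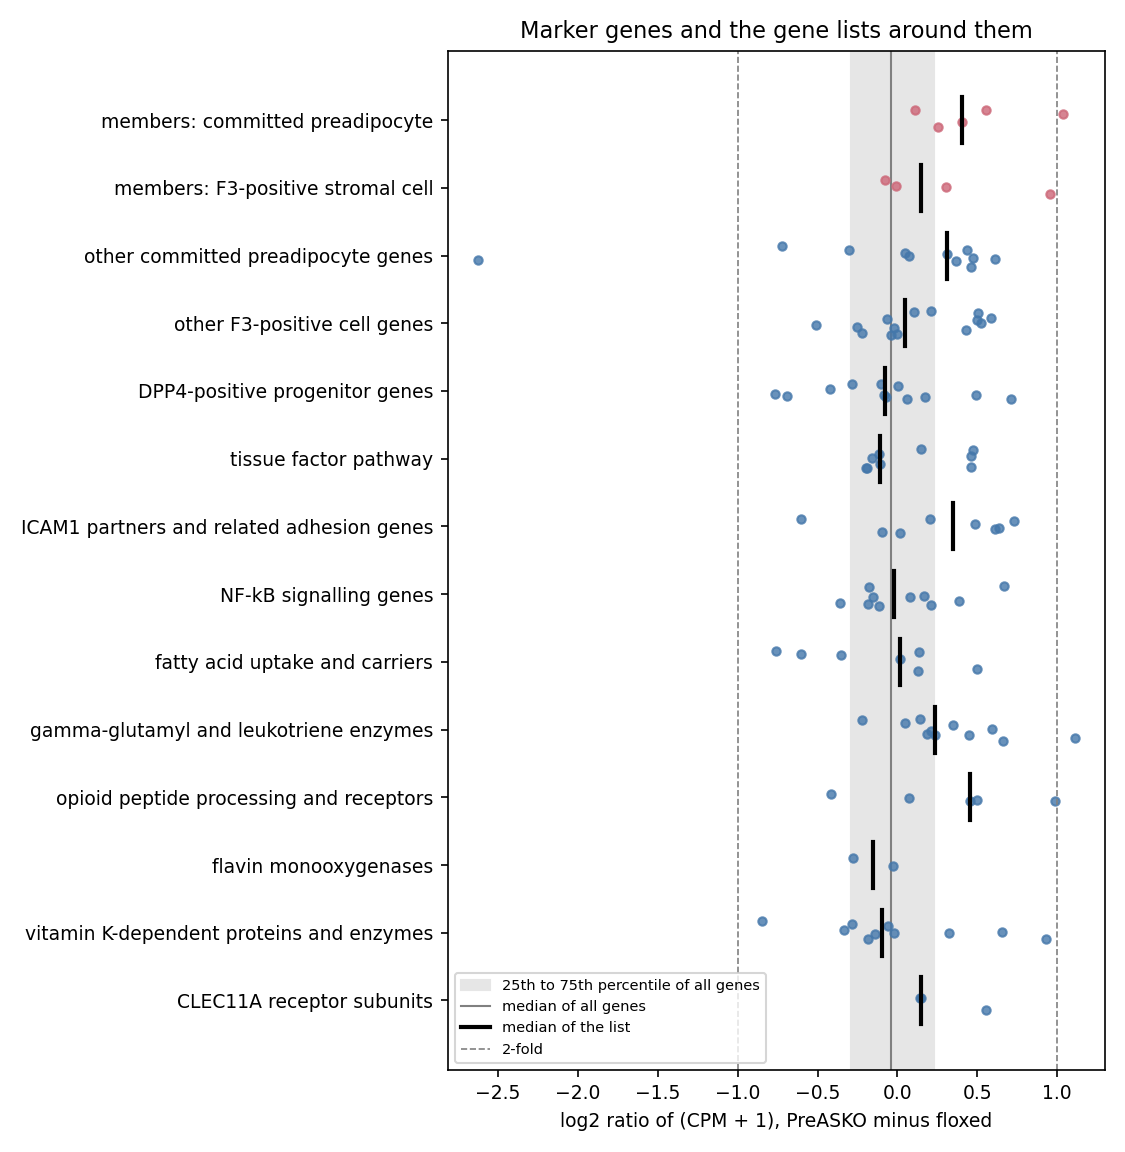
Log2 ratio of CPM + 1, PreASKO minus floxed, of every measured gene of the marker sets and of the lists around them, with the median of each list as a black bar; the grey band spans the 25th to the 75th percentile of all genes (-0.29 to 0.23). All 5 committed preadipocyte markers lie right of 0, and the wider DPP4-positive and F3-positive lists spread to both sides of it.

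Other genes of the same cell states also had the higher median for committed preadipocytes when both counts were added. It was the lower one in raw counts alone (-0.16 for the committed and 0.10 for the F3-positive list). That setting applied the filter to raw counts, which left fewer genes in the committed list. Cebpa and Cxcl14 had no raw counts, and raw counts held 0.534% of Pparg counts in floxed and 0.854% in PreASKO. The raw median therefore does not show a reversal of the same genes. Of 11 further genes used for committed preadipocytes, 8 were higher and 3 lower, with a median of 0.31. Cxcl14, a chemokine gene, stood at 18.3 and 28.4 CPM, and Col4a2, a basement membrane collagen, at 1094 and 1518 CPM. Pparg and Pdgfrb were lower, and Dlk1, which encodes Pref-1 and has also been used as a marker of this population, was the one more than 2-fold lower, at 105 and 16.2 CPM. Apoe, at 480 and 650 CPM, is also a product of macrophages.

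Of 14 further F3-positive cell genes, 7 were higher and 7 lower, with a median of 0.05. Gdf10, a secreted BMP-related factor of these cells, stood at 249 CPM in the floxed and 288 CPM in the PreASKO pool, and the homeobox gene Meox2 at 67.0 and 65.0 CPM. Bgn, a matrix proteoglycan, stood at 3051 and 4332 CPM, Fst, an activin inhibitor, at 175 and 235 CPM, and Vit, a matrix protein gene, at 84.0 and 58.6 CPM. Rspo2 and Spink2 were below 1 CPM in both libraries and were left out of the count. Of 12 genes of DPP4-positive progenitors, 5 were higher and 7 lower, with a median of -0.08. Dpp4 itself stood at 238 and 221 CPM, so that Icam1 counts per Dpp4 count were 0.912 in floxed and 1.06 in PreASKO. Pi16, a secreted protein gene of these progenitors, stood at 2226 and 1306 CPM and carried the largest difference of the list. Dact2 was also lower at 12.1 and 7.13 CPM, and Stmn4 and Bmp7 were higher, at 10.9 and 18.5 CPM and at 56.8 and 80.1 CPM.

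Markers of macrophages moved in the same direction as Fabp4 and Mgp. The 16 measured macrophage markers were all higher in PreASKO (median log2 ratio 0.82). The remaining listed marker, Cx3cr1, fell below the filter and was lower, at 0.777 and 0.638 CPM. The summed level of the 17 listed was 1492 CPM in floxed and 2806 CPM in PreASKO, with none at 0. Ms4a7 stood at 13.7 and 38.4 CPM, the scavenger receptor gene Cd163 at 42.7 and 96.4 CPM, and Ptprc, which encodes the leukocyte antigen CD45, at 10.04 and 21.8 CPM. Lyz2, the lysozyme of macrophages, stood at 387 and 843 CPM, and the quotient of Fabp4 to Lyz2 was 0.557 in floxed and 0.525 in PreASKO. Ratios of the measured macrophage markers ran from 1.18 for C1qa to 2.80 for Ms4a7, with 2.18 for Lyz2. How level such a quotient is therefore depends on the macrophage marker chosen. Of the 11 measured endothelial markers, 9 were higher and 2 lower (median 0.66). The summed level of the 14 listed was 483 CPM in floxed and 502 CPM in PreASKO. Most of that sum came from Lyve1 (239 and 247 CPM), Tek (154 and 147 CPM) and Eng. The endothelial cadherin gene Cdh5, at 3.63 and 7.42 CPM, and Kdr, at 5.003 and 11.1 CPM, were low beside Fabp4, Plvap stood at 8.95 and 12.05 CPM and Eng at 67.8 and 65.0 CPM, and none of the list was at 0. The part of macrophage or endothelial RNA in the values of Fabp4, Cd36, Mgp, Alox5 and the ICAM1 partners was not tested.

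Markers of mature adipocytes, which also make Fabp4 and Cd36, went the opposite way. Of 11 measured, 10 were lower and 1 was higher, with a median of -0.58, and the summed level of the 14 listed was 913 CPM in floxed and 605 CPM in PreASKO. Most of that sum came from Car3 (716 and 477 CPM). Gpd1, which supplies glycerol phosphate for triglycerides, stood at 25.1 and 5.45 CPM and had the lowest log2 ratio of the list. Adipoq, which encodes adiponectin, stood at 41.2 and 12.8 CPM and Lipe, a triglyceride lipase, at 22.3 and 11.5 CPM. The higher one was Plin4, a lipid droplet protein, at 13.4 and 24.5 CPM. Lep and Cidea were at 0 in floxed and below 1 CPM in PreASKO. Mural cell markers, from cells that also make Mgp, were divided, 4 higher and 5 lower, with a median of -0.01 (0.02 with TMM scaling) and summed levels of 337 and 341 CPM. Cspg4 stood at 7.45 and 4.02 CPM, Notch3 at 40.1 and 27.95 CPM, the smooth muscle genes Myh11 at 4.65 and 7.26 CPM and Acta2 at 18.2 and 16.7 CPM.

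General markers of the sorted identity were abundant in both libraries, while the purity of the sort was not tested. The 10 general markers of PDGFRa-positive stromal cells summed to 26007 CPM in floxed and 26044 CPM in PreASKO. Most of that sum came from Fn1 (8453 and 7789 CPM) and Gsn (7165 and 8045 CPM). The median log2 ratio of the list was -0.18, with 4 higher and 6 lower. Pdgfra stood at 716 and 603 CPM. Among the other general markers, Fbln2 stood at 547 and 408 CPM, Col6a1 at 2771 and 2174 CPM, Pdgfrb at 219 and 177 CPM and Ly6a at 2171 and 2840 CPM. With TMM scaling of the libraries, the ratio of F3 was 1.02 and that of Fmo2 0.969, so the direction of F3 depended on the scaling.

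**Figure D4:**
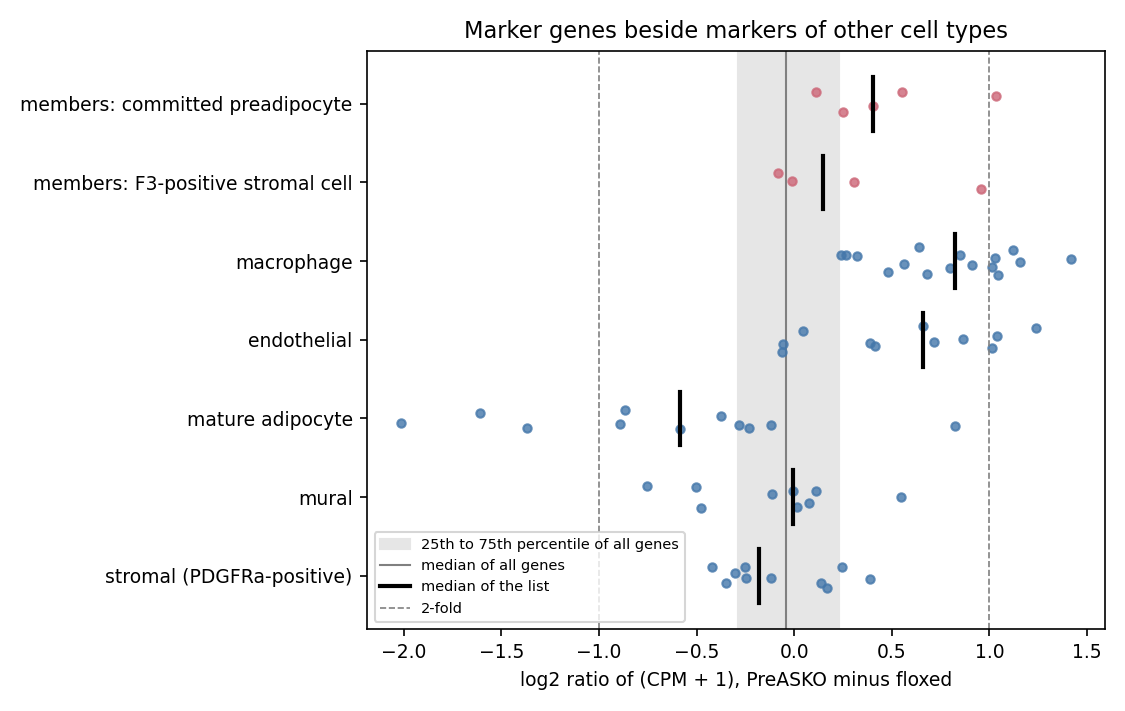
Log2 ratio of CPM + 1, PreASKO minus floxed, of the measured genes of both marker sets and of lists of other cell types, with the median of each list as a black bar. Macrophage markers all lie right of 0 (median 0.82), mature adipocyte markers mostly left of it (median -0.58) and general stromal markers around it (median -0.18).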

How the data were processed

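Polyadenylated RNA of sorted PDGFRa-positive cells was sequenced from 2 libraries, 1 per genotype. The submitters' processing notes name the build mm10. For aligner, counter and strand setting: not given in the sources used here. Per the file headers, the deposited table holds a raw count and a repeat-distributed count per gene and library, the latter treated here as an estimated count, and the authors' fold change, a ratio whose normalization is not stated. How reads were divided between the count columns is not stated; raw counts made up 21.9% of the floxed total and 24.4% of the PreASKO total.

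The main measure was the sum of both counts over the library total, as CPM. In GENCODE, Icam1, Ggt5 and Penk each overlap a gene on the other strand by 511, 512 and 499 bases, whose reads could not be told apart without strand. Rows sharing a gene ID were joined for 21 IDs, which left 23647 genes. Log2 ratios carry a pseudocount of 1 CPM and were taken for genes that averaged 1 CPM or more. The authors' fold lay within 5% of 1.02 times the CPM ratio for 97.9% of 11991 rows that reached 100 counts in both libraries. Estimated counts were rounded for intervals. Coordinates and start regions came from RefSeq (GRCm38.p6), and levels per kilobase used the GENCODE M21 transcript numbered 201. Sequence motifs were chosen after the values were seen. The procedure was tested on simulated counts that carried counting error only, so that test says nothing about variation between mice or pools. Scaling factors came from edgeR 4.0.16 and DESeq2 1.42.0, and other values from Python 3.11.15 with scipy 1.17.1; no test was run with either package.

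The markers and all gene lists were chosen with earlier results of these data known. Named genes are every marker, then of each list described up to 4 genes with the largest absolute log2 ratio and an average of 5 CPM or more. Further named genes are direct partners or relatives of a marker from the same lists, or genes chosen after their values were seen. A few genes stand in more than one list, and a few related genes are not reported here.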

Additional observations from a re-analysis of the deposited data

How the results depend on the processing

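The number of markers at least 2-fold higher was 1 as reported, 2 with a 1.5-fold cutoff, 0 with a 3-fold cutoff and 2 with the authors' deposited fold divided by its median, where Mgp joined Fabp4. With the repeat-distributed count alone it was also 1, but this was Mgp and not Fabp4. Counted on log2 ratios, which carry a pseudocount except for the authors' fold, no setting gave a marker 2-fold lower. Without a pseudocount, the raw count ratio of Penk, 0.492, was more than 2-fold lower. The median over the markers stayed within 0.1 of its reported value in all 9 settings run on it. The raw count alone turned Penk to a ratio of 0.492 and Fmo2 to 1.46, and the repeat-distributed count alone turned Icam1 to 0.909; the cause was not tested. F3, whose interval includes 1, ranged from 0.909 to 1.03. Over all genes, 289 were 2-fold higher and 208 lower. These numbers became 515 and 412 under a pseudocount of 0.1 CPM, 58 and 28 under one of 5 CPM, 153 and 93 for genes averaging 5 CPM or more, 1080 and 1120 at 1.5-fold, 30 and 22 at 3-fold, 465 and 907 from raw counts, and 609 and 460 from the authors' deposited fold. Higher genes made up 58.1% of those past 2-fold as reported and 33.9% with the raw count alone. Of the lists described, medians changed sign from raw counts alone for the wider committed preadipocyte list (-0.16), the ICAM1 partners (-0.30), fatty acid uptake (-0.06), the opioid list (-0.13), endothelial markers (-0.17), flavin monooxygenases (1.13), the tissue factor pathway (0.14), the vitamin K list (0.05) and the DPP4-positive list (0.02). That setting filtered on raw counts and kept 9062 genes against 13684, so several of these medians cover other genes. Itgal, Itgam, Itgb2, Pecam1 and Cdh5 had almost no raw counts and fell out. The flavin monooxygenase median rests on few counts, as raw counts held 0.0642% of Fmo1 counts in floxed and 0.520% in PreASKO. These sign changes therefore do not show that the same genes reversed. Fatty acid uptake was also below 0 from repeat-distributed counts (-0.38) and for genes averaging 5 CPM or more (-0.17). Set medians of the markers exchanged their order from raw counts, at 0.21 for committed and 0.44 for F3-positive. The median of the wider F3-positive list turned to -0.01 for genes averaging 5 CPM or more and to -0.004 with no filter. Without the filter, the median of the tissue factor pathway turned to 0.12. No paired analysis was possible because each genotype had 1 library. Depth limits the genes below 1 CPM, such as the opioid receptor genes, more than the markers.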
